A study of Mus musculus with 2 samples.

Results

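The adipogenic regulators and lipid storage genes Cebpa, Pparg, Ppard, Ppara, Lpl, Fabp4, Cd36, Scd1, Scd2 and Acsl1 were examined in mouse embryonic fibroblasts (MEFs) with and without Bmi1. Every probe set annotated to exactly 1 gene of this list was taken, which gave 21 of the 45101 probe sets on the array and covered 9 of the 10 genes. No probe set was listed under Acsl1 in the annotation used here, so that gene was not analysed here. A further probe set shared by Ppard and 1810013A23Rik was left out of all counts and read 79.6 in wild-type cells and 14.9 in null cells.

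Both cell lines came from littermates, 1 with intact Bmi1 and 1 lacking it, and both had been immortalised with the T-box repressor TBX2. The labels give both lines as male C57BL/6 cells, grown in serum-containing medium with no treatment. Bmi1 is the subunit of Polycomb repressive complex 1 that stimulates ubiquitylation of histone H2A. Each line was measured on 1 Affymetrix array, so there was no replicate, and the genotype cannot be told apart from the line, its culture or its array. No test was therefore possible, and each difference given here is between 2 arrays.

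The labels were checked before the genes were described. The brighter Bmi1 probe set read 9933 in wild-type cells and 2146 in null cells and the other read 931 and 831. It is not known here whether either of them targets the deletion, so they need not report it. The Y-linked genes Eif2s3y (1683 and 23.3), Uty (1187 and 26.5) and Kdm5d (712 and 15.3) had signal in wild-type cells but not in null cells, which goes against the label male for the null line. The fibroblast genes Vim (19519 and 19233) and Col1a2 (15048 and 17030) were bright on both arrays. Of the 10 fibroblast genes listed, 6 were under 2-fold, 2 were higher past it in null cells and 2 lower. Among those past it were Col3a1 (4617 and 20209) and Pdgfra (4952 and 532). Whether the difference in Y-linked genes has a part in the values below was not tested.

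Adipogenesis is run by a cascade of transcription factors. C/EBPβ and C/EBPδ, induced early by hormones, switch on C/EBPα (Cebpa) and PPARγ (Pparg), which then sustain each other and activate the genes of fat uptake and storage. PPARδ (Ppard) and PPARα (Ppara) are related nuclear receptors that govern fatty acid use, and all PPARs bind DNA together with a retinoid X receptor. Among the targets, lipoprotein lipase (Lpl) releases fatty acids from circulating lipoproteins, Cd36 carries them across the membrane, Fabp4 binds them in the cytosol, acyl-CoA synthetase (Acsl1) activates them, and the stearoyl-CoA desaturases Scd1 and Scd2 make monounsaturated fatty acids from saturated ones. Embryonic fibroblasts can become adipocytes when given an inducing mixture, and the cells here were not given one.

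Cebpa was among the promoters at which the study looked for ubiquitylated H2A (uH2A) by ChIP-qPCR, chosen as a promoter with a peak of the mark, whereas Ppara was chosen as a promoter without a peak. The upstream sequences of these 2 genes are shown because the study compared them and because it classed promoters by their density of CpG. Each covers 250 bases ending just before the RefSeq start site (assembly GRCm38.p6), 5′ to 3′ on the coding strand, with every CpG in capitals.
Cebpa, chr7:35119043-35119292, plus strand: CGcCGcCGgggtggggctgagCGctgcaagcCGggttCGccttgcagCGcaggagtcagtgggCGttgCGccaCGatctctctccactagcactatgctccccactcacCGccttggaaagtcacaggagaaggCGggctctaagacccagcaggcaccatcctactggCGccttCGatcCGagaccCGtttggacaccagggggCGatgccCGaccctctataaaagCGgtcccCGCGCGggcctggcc
Ppara, chr15:85735526-85735775, plus strand: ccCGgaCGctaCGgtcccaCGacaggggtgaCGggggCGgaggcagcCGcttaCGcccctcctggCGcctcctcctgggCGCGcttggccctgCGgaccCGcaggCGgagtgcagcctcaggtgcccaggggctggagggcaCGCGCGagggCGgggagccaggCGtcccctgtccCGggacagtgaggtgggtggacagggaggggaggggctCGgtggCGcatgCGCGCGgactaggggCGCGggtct

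Both windows were rich in CpG. The Cebpa window held 22 CpG and was 66.4% G and C, and the Ppara window held 27 CpG and was 76.4% G and C. Over 32851 such windows of 27025 genes in the RefSeq table the median was 6 CpG, and 85.2% of windows had fewer CpG than Cebpa and 91.4% fewer than Ppara. Ppara, the promoter chosen for having no uH2A peak, thus held more CpG in this window than Cebpa. The study took promoters on both sides of the start site and sorted them into CpG classes, which this upstream count does not reproduce.

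The table held 9 upstream windows for 6 of the 10 genes, and they were of different kinds. The window of Ppard held 22 CpG, as many as that of Cebpa, and the window of Cd36 held 3. The 3 start sites of Pparg had windows with 38, 12 and 2 CpG, and the 2 of Acsl1 had 20 and 2. A TATA motif (TATAAA on either strand) was found in the Cebpa window, 30 bases before the start site, and in the middle Pparg window, 29 bases before it. It was found in 12.4% of all windows. The nuclear receptor core motif AGGTCA, searched on either strand because PPARs and retinoid X receptors bind repeats of it, was in 2 of the Pparg windows and in the Cd36 window, and in 14.0% of all windows. These matches describe letters in the windows and not bound sites.

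Signals are MAS5 intensities, which the authors scaled so that the mean after removal of 2% at each end was 500 on each array. A signal of 100 was taken as the floor, below which a probe set gives only a bound. Ratios are given as log2 of null over wild-type. A probe set or gene is called measured when at least 1 array lay above the floor, and a count past 2-fold includes bounds. By this rule 10 of the 21 probe sets were measured, 8 of them above the floor on both arrays, and 11 (52.4%) lay below it on both. Over the whole array 48.9% of probe sets lay below it on both arrays.

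**Figure D1:**
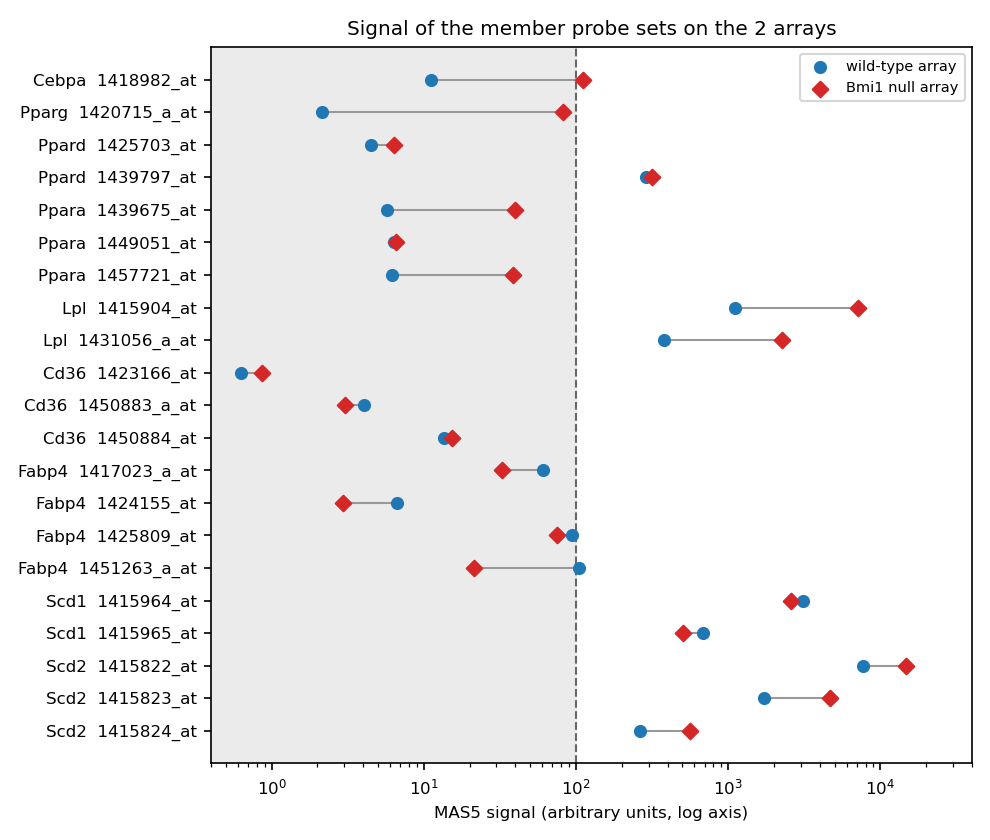
Signal of each of the 21 probe sets (rows, with gene and probe set name) on the wild-type array (blue circles) and the Bmi1 null array (red diamonds), in MAS5 units on a log axis. The grey area lies below the floor of 100. Lpl, Scd1, Scd2 and 1 probe set of Ppard lie above the floor on both arrays, while Pparg, Ppara, Cd36 and most Fabp4 probe sets lie below it on both.

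The master regulators of fat cell fate had little or no signal in either line. The single Cebpa probe set (1418982_at) read 11.1 in wild-type cells and 111 in null cells. It was below the floor in wild-type cells and only just above it in null cells, so its difference was at least 1.11-fold, a log2 ratio of at least 0.15. This small bound depends on the floor. With a floor of 0.1 times the trimmed mean the bound was 1.15 on the log2 scale, and without any floor the ratio was 3.32.

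The single Pparg probe set (1420715_a_at), which by its suffix recognises several transcripts of 1 gene, read 2.16 in wild-type cells and 82.2 in null cells. Both values were below the floor, so no ratio is given and no order can be read from them. Ppara, the regulator of fatty acid burning in liver, was likewise below the floor at each of its 3 probe sets. These read 5.75 and 39.7 (1439675_at), 6.41 and 6.56 (1449051_at) and 6.15 and 38.4 (1457721_at) in wild-type and null cells. At these signals neither the presence nor the absence of a difference could be read for Pparg or Ppara.

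Ppard, the PPAR of widest expression, was the PPAR with signal above the floor. One of its probe sets (1439797_at) read 287 in wild-type cells and 315 in null cells, a log2 ratio of 0.14. The other (1425703_at) was below the floor on both arrays at 4.53 and 6.39. A ratio of 0.14 was smaller than the spread between probe sets of the same gene, whose SD in log2 ratio was 0.33 over 1187 pairs with a brightest signal of 100 to 500.

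Among the members above the floor on both arrays, Lpl had the largest difference. Its probe set 1415904_at read 1114 in wild-type cells and 7104 in null cells, 6.37-fold higher (log2 ratio 2.67). The other probe set, 1431056_a_at, read 376 and 2253, 5.98-fold higher (log2 ratio 2.58). The 2 probe sets differed from each other by 0.09 in log2 ratio. The SD between probe sets was 0.28 for 2767 pairs with a brightest signal of 2000 or more. It is scaled to 1 probe set, so the SD of a difference between probe sets is larger. Of the 11766 measured genes, 110 (0.935%) had a higher ratio than Lpl. In bulk RNA, more cells with Lpl and more Lpl RNA per cell cannot be told apart.

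The other genes of fatty acid uptake and binding did not share this signal. Cd36, the fatty acid translocase, was below the floor on both arrays at all 3 probe sets. It read 0.631 and 0.866 (1423166_at), 4.06 and 3.02 (1450883_a_at) and 13.5 and 15.3 (1450884_at) in wild-type and null cells. Fabp4, the adipocyte fatty acid binding protein, had 4 probe sets, of which 1 passed the floor on 1 array.

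That Fabp4 probe set (1451263_a_at) read 105 in wild-type cells and 21.5 in null cells, a difference of at least 1.05-fold. The remaining probe sets of Fabp4 read 60.9 and 32.5 (1417023_a_at), 6.69 and 2.92 (1424155_at) and 94.2 and 75.2 (1425809_at). All 4 readings were thus near or below the floor in wild-type cells and below it in null cells. No ratio beyond the bound can be given for this gene.

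The desaturases Scd1 and Scd2, close relatives whose genes lie in 1 cluster on chromosome 19 with Scd4 between them, had bright signals and ratios of opposite sign. Scd2, the form that predominates in embryonic and neural tissue, was higher in null cells at all 3 probe sets. It read 7707 and 14672 (1415822_at), 1.90-fold higher with a log2 ratio of 0.93. At 1415823_at it read 1708 and 4636 (2.71-fold, log2 ratio 1.44), and at 1415824_at it read 265 and 564 (2.13-fold, log2 ratio 1.09). All 3 probe sets were designed on 1 transcript accession, so they share their target. The brightest, which stands for the gene in counts, was the one that missed 2-fold, and 749 measured genes (6.37%) had a higher ratio than it.

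Scd1, the form that predominates in liver and fat, was lower in null cells at both probe sets, by less than 2-fold. It read 3081 in wild-type cells and 2570 in null cells at 1415964_at, 1.20-fold lower (log2 ratio −0.26). At 1415965_at it read 688 and 503, 1.37-fold lower (log2 ratio −0.45). The first of these was within the between-probe-set SD of 0.28 and the second exceeded the SD of 0.31 found over 3516 pairs of 500 to 2000. The lowest Scd2 ratio exceeded the highest Scd1 ratio by 1.19 on the log2 scale, and the means of their probe sets, 1.15 and −0.36, differed by 1.51. Without replicate arrays this difference between the paralogues was not tested.

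Counted by gene at the brightest probe set, 5 members were measured (Cebpa, Ppard, Lpl, Scd1 and Scd2). Lpl was past 2-fold on the higher side and 0 members were past it on the lower side, where 5.73% of all measured genes passed on the higher side and 5.16% on the lower side. The median log2 ratio of the 5 was 0.15, against 0.006 for all measured genes. That median is the value of Cebpa, a lower bound set by the floor. Counted by probe set, 4 of 10 were higher past 2-fold (both of Lpl and 2 of Scd2) and 0 lower, against 4.93% higher and 4.96% lower of all measured probe sets. These probe sets came from 2 genes and are not independent of each other.

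**Figure D2:**
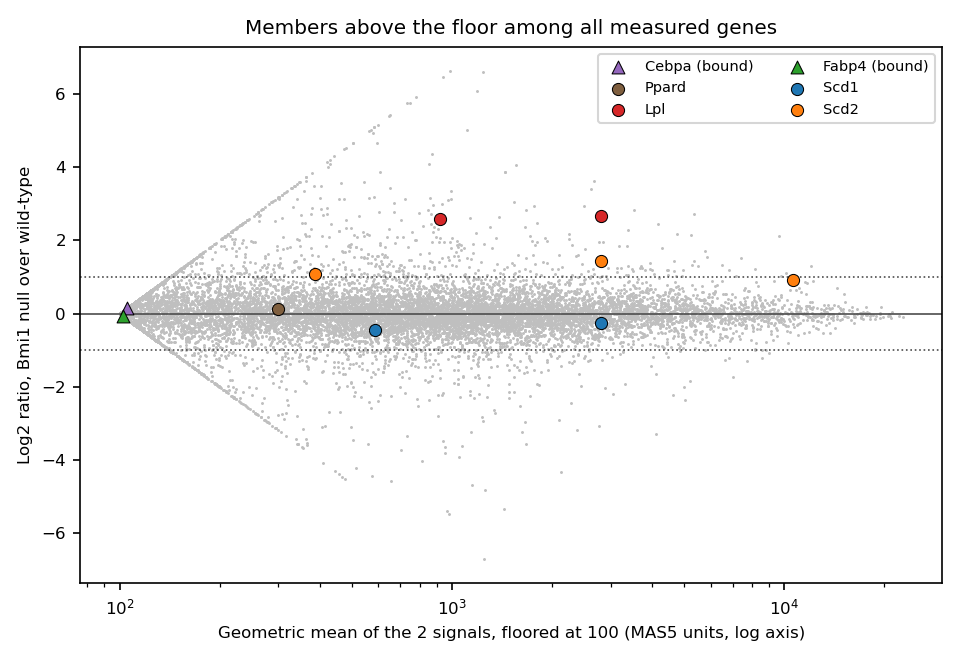
Log2 ratio, Bmi1 null over wild-type (y axis), against the geometric mean of the 2 signals in MAS5 units (x axis, log scale, signals below 100 set to 100) for all 11766 measured genes (grey) and for the 10 measured member probe sets (coloured). Triangles mark bounds and dotted lines 2-fold. The ratio of Cebpa lies at or above its triangle and that of Fabp4 at or below its triangle. Both Lpl probe sets lie well above the 2-fold line at 2.58 and 2.67, the Scd2 probe sets lie around it and those of Scd1 lie just below 0.

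The other genes of the pathway were described by 9 lists of adipogenic and lipid genes. Of 125 listed genes with a probe set, 91 were measured. In null cells 3 (3.30%) were higher past 2-fold, where the share over all measured genes was 5.73%, and 11 (12.1%) were lower, where it was 5.16%. The median over these genes was −0.11, against 0.006 for all measured genes. Lpl was higher, as were these 3 genes, of which 2 are listed as restrainers of adipogenesis and 1 under lipolysis. The lists pool genes of unlike function, so the pooled shares give no direction of the pathway. They were also chosen with earlier results of these data known.

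Transcription factors and coactivators that act upstream of or together with Cebpa and Pparg were lower or little different in null cells. Among 14 measured, 4 were lower past 2-fold, 0 higher, and the list median was −0.34. Ebf1, an early factor of both fat and B cells, read 677 in wild-type cells and 80.6 in null cells at its brightest probe set. That was at least 6.77-fold lower. Of its further probe sets 3 gave bounds of at least 4.93-fold to at least 6.47-fold, while another was below the floor on both arrays. Cebpd, the early inducer C/EBPδ, read 3505 and 921 (3.81-fold lower) at 1 probe set and 407 and 262 (1.56-fold lower) at the other. Klf5, a Krüppel-like factor that acts between C/EBPβ or δ and Pparg, read 1569 and 482 (3.25-fold lower), but another probe set close to the floor read 121 and 116.

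Partners of the PPARs with signal above the floor on both arrays were near equal. The retinoid X receptor Rxra read 831 and 771, Rxrb read 1334 and 1240, and the Mediator subunit Med1 read 1680 and 1594, with log2 ratios of −0.11, −0.11 and −0.075. Ppargc1a, the inducible coactivator of PPARs, and the retinoid X receptor Rxrg were below the floor on both arrays. Another coactivator, Ppargc1b, read 121 and 34.5, at least 1.21-fold lower. Cebpb, which starts the cascade, read 12407 and 6290, 1.97-fold lower.

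Genes that restrain adipogenesis included 2 of 12 that were higher past 2-fold and 0 lower, and the list median was −0.16. Hes1, a Notch target, read 197 in wild-type cells and 1163 in null cells (5.91-fold higher). Dlk1, also called Pref-1 for its role in preadipocytes, read 759 and 4258 (5.61-fold higher), and this rests on 1 probe set of the suffix _s_at, since its other probe set was below the floor. The other measured genes of this list were under 2-fold, among them Gata2 (1003 and 807) and Klf2 (2161 and 1410), which were lower in null cells. Nr2f2, an orphan nuclear receptor, was close to the threshold on the higher side at 698 and 1361 (1.95-fold), and median scaling took the count of higher genes from 2 to 3. Sirt1 was close to it on the lower side at 1393 and 735 (1.90-fold). Gata3 and Wnt10b were below the floor on both arrays.

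Among 7 measured genes that act with lipoprotein lipase or take up lipoproteins, 0 were higher past 2-fold and 2 were lower, and the list median was −0.092. The count of lower genes was 1 under 5 of the 8 alternative settings. Angptl4, a secreted inhibitor of lipoprotein lipase and a PPAR target, was 1 of these and read 493 and 122 (4.04-fold lower). It lies just outside the rule for named genes and was chosen after its value was seen. The other, Lipg, an endothelial lipase, read 216 and 108 and was on the 2-fold threshold at 2.00-fold lower. The maturation factors Lmf1 (368 and 348) and Sel1l (2905 and 2726), which lipoprotein lipase needs to fold, were near equal. Lrp1, a lipoprotein receptor and the brightest of the list, read 4030 and 2324 (1.73-fold lower).

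Fatty acid transport and activation genes were mostly near equal, with 2 of 11 lower past 2-fold, 0 higher and a list median of −0.16. Acsl6, an acyl-CoA synthetase related to Acsl1, read 743 in wild-type cells and 105 in null cells (7.08-fold lower), and at its other probe set 126 and 24.0 (at least 1.26-fold lower). The fatty acid transporter Slc27a1 read 1074 and 356 (3.02-fold lower) and 935 and 294 (3.18-fold lower) at its 2 probe sets. Fabp5, the binding protein of epidermis and many cultured cells, was bright on both arrays at 11008 and 12744 (1.16-fold higher in null cells).

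Enzymes that make and desaturate fatty acids alongside Scd1 and Scd2 differed less than 2-fold throughout. All 12 measured genes were under 2-fold, with log2 ratios from −0.51 to 0.83 and a median of 0.005. Fatty acid synthase (Fasn) read 1931 and 1912, acetyl-CoA carboxylase (Acaca) 892 and 759, and the elongase Elovl5 4811 and 6388. Srebf1, which drives this set of enzymes, read 1634 and 1922. At the brightest probe sets, Scd2 (0.93) lay just above the highest gene of this list, the elongase Elovl6 (0.83, 596 and 1059). That gap was smaller than the SD between probe sets, scaled to 1 probe set. This SD was 0.28 at signals of 2000 or more, as for Scd2, and 0.31 at 500 to 2000, as for Elovl6. The other Scd2 probe sets gave 1.44 and 1.09.

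Genes of triglyceride synthesis and the lipid droplet had 3 of 14 lower past 2-fold and 0 higher, and the list median was −0.24. Plin2, a coat protein of lipid droplets in most cell types and a PPAR target, read 7280 in wild-type cells and 2320 in null cells (3.14-fold lower) at its single probe set. The lipid droplet genes Cidea, Cidec and Plin4 were below the floor on both arrays, and Plin1 had no probe set.

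Among 6 measured lipolysis genes, 1 was higher past 2-fold and 0 lower, and the list median was −0.76. The higher gene was Mgll, monoglyceride lipase, which read 121 in wild-type cells and 1351 in null cells (11.2-fold higher). Of its further probe sets 1 gave a bound of at least 12.1-fold and 1 a bound of at least 18.7-fold, while another was below the floor on both arrays. The triglyceride lipase Pnpla2 (1286 and 740), its activator Abhd5 (1303 and 660) and the lysosomal lipase Lipa (2973 and 1770) were 1.74-fold, 1.97-fold and 1.68-fold lower.

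Fatty acid oxidation genes that respond to PPARs were near equal. All 11 measured genes were under 2-fold, with log2 ratios from −0.46 to 0.53 and a median of 0.17. Hadhb, a subunit of the mitochondrial trifunctional protein, read 4018 and 5781 at its brightest probe set and 2515 and 2792 at another. Pdk4, a sensitive PPAR target, was below the floor on both arrays at 32.1 and 2.91.

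**Figure D3:**
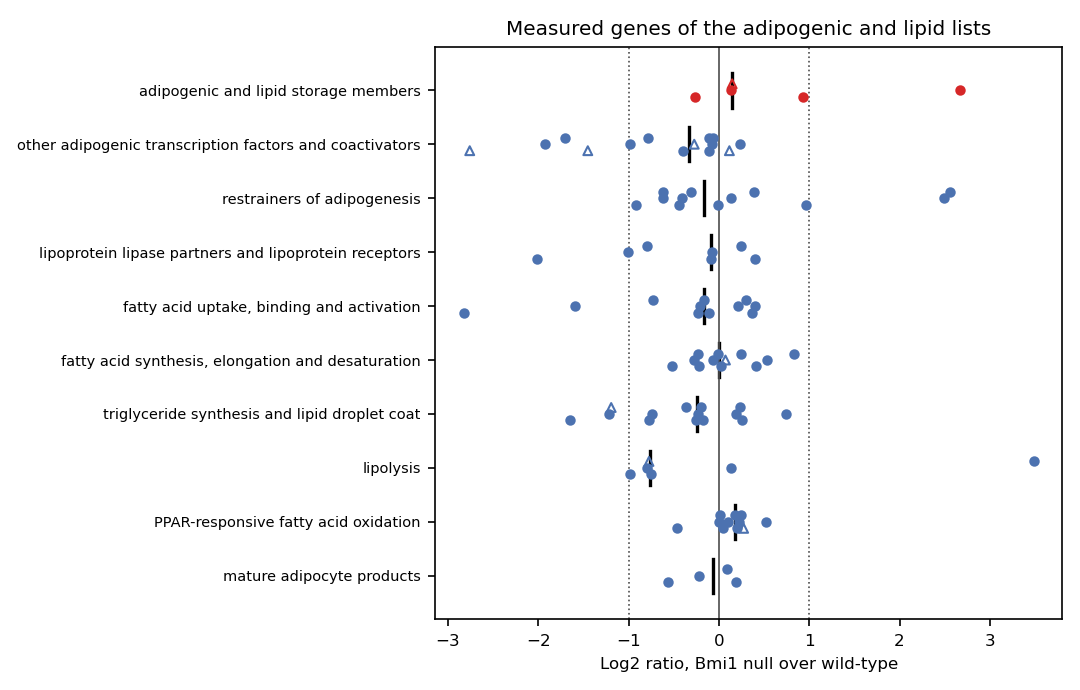
Log2 ratio, Bmi1 null over wild-type (x axis), of each measured member (red, top row) and of each measured gene of 9 adipogenic and lipid lists (blue), at the brightest probe set of each gene. Open triangles are genes below the floor on 1 array, whose ratios lie at least this far from 0, and black bars are medians. Dotted lines mark 2-fold. The synthesis and oxidation lists lie wholly within 2-fold, and Lpl at 2.67 and Mgll at 3.48 lie farthest to the right.

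Products of mature fat cells were compared to see whether either culture held adipocytes. Of 10 with a probe set, 4 were measured, and 0 of them passed 2-fold in either direction. Their median was −0.065. The defining hormones adiponectin (Adipoq, 9.60 and 17.5) and leptin (Lep, 4.10 and 3.76) were below the floor on both arrays. The measured genes were Retn (254 and 171), Slc2a4 (190 and 216), Lgals12 (152 and 162) and the adiponectin receptor Adipor2 (1569 and 1343). Adiponectin and leptin thus had no signal above the floor, while Retn, Slc2a4 and Lgals12 lay above it on both arrays. Cfd and Adrb3 had no probe set. These markers do not settle whether either culture held adipocytes. The label adipogenic names what these genes do in fat and is not a statement on the state of these cultures.

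Macrophages, endothelium and muscle each make at least 1 of Lpl, Cd36 and Fabp4, though not each of them all 3, so markers of these cells were examined. Of 10 macrophage markers, 3 were measured and 0 passed 2-fold, with summed signals over the measured markers of 633 in wild-type cells and 625 in null cells. The pan-leukocyte gene Ptprc (12.4 and 36.1) and Tyrobp (36.0 and 61.7) were below the floor. Of 10 endothelial markers, 5 were measured with summed signals of 579 and 483, and 1 was lower past 2-fold (Cdh5, 208 and 29.2), while Pecam1 (15.8 and 37.4) was below the floor. Emcn, another of these, read 26.0 and 103 and was just above the floor in null cells. Of 10 skeletal muscle markers, 3 were measured with summed signals of 888 and 573, and 1 was lower past 2-fold (Acta1, 514 and 237), while Myod1 and Myog were below the floor. No measured marker of these 3 cell types was higher past 2-fold in null cells at this floor. That count depends on the floor. A floor of 0.1 times the trimmed mean added 1 endothelial marker (Emcn), and using none added 2 endothelial, 2 muscle and 1 macrophage marker (Emcn, Pecam1, Myog, Myf5 and Ptprc). The part of such cells in the Lpl difference was not tested.

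Fibroblast genes differed between the lines in both directions. Among 10 measured, 2 were higher past 2-fold and 2 lower, and the list median was 0.003. The collagens Col3a1 (4617 and 20209) and Col1a1 (6860 and 14841) were 4.38-fold and 2.16-fold higher, and other probe sets gave 22.7-fold and 3.65-fold. Pdgfra, the receptor that marks mesenchymal and fat progenitors, read 4952 and 532 (9.31-fold lower), and Thy1, another mesenchymal marker named after its value was seen, was at least 3.75-fold lower (375 and 50.7). The part of these fibroblast genes in the Lpl and Scd2 differences was not tested.

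**Figure D4:**
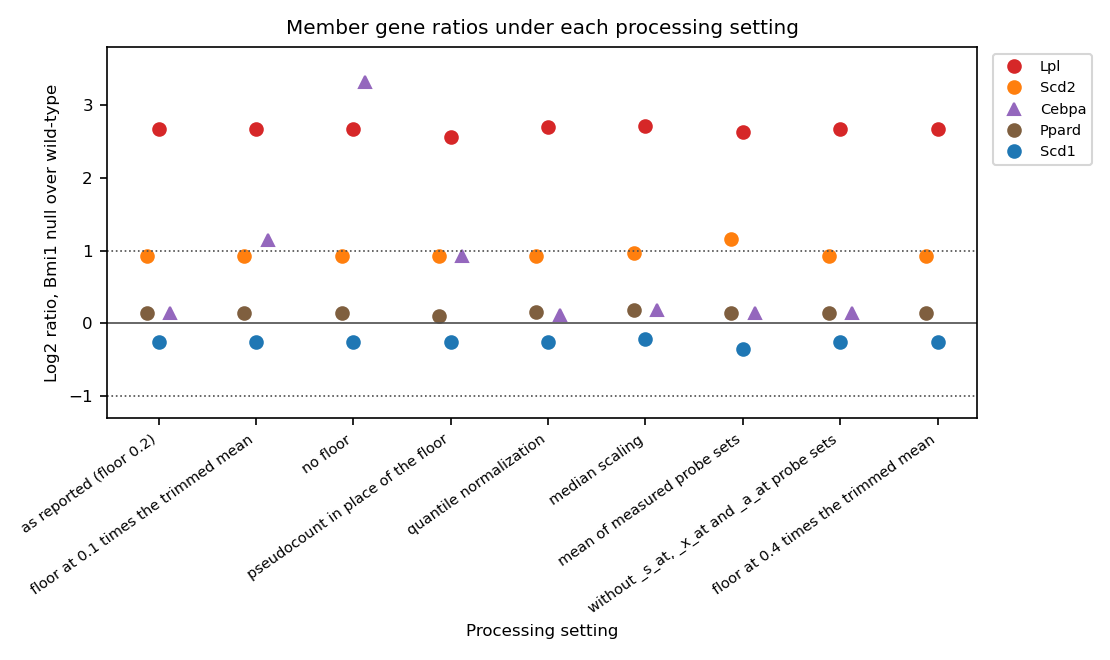
Log2 ratio, Bmi1 null over wild-type (y axis), of the 5 measured members at the probe set that represents each gene, under the reported setting and 8 alternatives (x axis). Circles are ratios, triangles mark Cebpa (a bound where a floor is used) and dotted lines mark 2-fold. Lpl stays between 2.57 and 2.72 and Scd1 between −0.36 and −0.22, whereas Cebpa moves between 0.12 and 3.32 and has no value at the highest floor, 0.4 times the trimmed mean.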

How the data were processed

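RNA of 1 wild-type and 1 Bmi1 null MEF line was hybridised to 1 Affymetrix mouse expression array each. Per the labels the authors derived 1 linear MAS5 intensity per probe set, and these deposited values were used unchanged. The study's methods name Affymetrix Microarray Suite, the software after which MAS5 is called. One factor per array sets both to the same trimmed mean, which hides any shift common to most transcripts. Present and absent calls were not used here.

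Of 45101 probe sets, 34958 had 1 gene symbol, 932 several and 9211 none. Only the former named genes, and 0 symbols changed through their Entrez identifiers in the RefSeq table. Each of 18194 genes was represented by its probe set of highest mean log2 signal. Signals below 0.2 times the trimmed mean (100) were set to that floor. A gene below it on 1 array gives a bound, and on both no ratio. Members, 13 gene lists and the 2-fold threshold were chosen with earlier results of these data known. Named list genes were up to 4 per list at least 2-fold different with a brighter signal of at least 500, with the brightest measured gene added where fewer than 2 passed. Other listed genes given as examples were chosen after their values were seen. With 1 array per group there was no test. The spread between probe sets of a gene (SD of differences of neighbouring pairs over the square root of 2; 0.30 over 7470 pairs) covers probe set error only, and precision is otherwise limited by having 2 arrays. Of 179 listed genes, 14 had no probe set in the annotation and were not analysed here. The code for ratios and calls was run on simulated data with large planted differences, signals well above the floor and little noise. That run does not bear on signals near the floor or on differences near 2-fold. Python 3.11.15, pandas 2.3.3 and numpy 2.4.6 were used. Upstream windows came from RefSeq (GRCm38.p6), and no array coordinates are given, as the annotation names no build.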

Additional observations from a re-analysis of the deposited data

How the results depend on the processing

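The number of measured members at least 2-fold higher in null cells was 1 in the reported setting and 2 at a floor of 0.1 times the trimmed mean (Cebpa added), 4 without a floor (Cebpa, Pparg and Ppara added) and 2 with the mean of measured probe sets (Scd2 added). The share of all measured genes at least 2-fold higher was 5.73%, 6.43%, 12.9% and 5.15% in these settings. The number at least 2-fold lower was 0 under all 8 alternatives. The median log2 ratio of measured members moved from 0.15 to 0.72 at the floor of 0.1 times, 0.53 at 0.4 times and 0.93 without one, settings in which 7, 4 and 9 members had a ratio. It was 0.14 to 0.38 under the other 5. The ratios of Lpl, Scd1, Scd2 and Ppard kept their sign under every alternative that gave a value, and no result changed sign from a call of 2-fold. Cebpa was 0.92 with a pseudocount, and Fabp4 at its measured probe set was −1.07 with the floor at 0.1 times and −2.29 without one. Without probe sets of the suffixes _s_at, _x_at and _a_at, Dlk1 and Mgll had no measured probe set, which left 1 restrainer and 0 lipolysis genes at least 2-fold higher. In that setting the genes at least 2-fold lower went from 2 to 1 among lipase partners, 4 to 3 among transcription factors, 3 to 2 in the triglyceride list and 1 to 0 among muscle markers. The low signal of Pparg, Ppara, Cd36 and Fabp4 limits what can be said of them. No paired analysis was possible because each group had a single array.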
